A study of Homo sapiens with 100 samples.

Results

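FOXO1 and FOXO3, forkhead transcription factors of the FOXO family, were followed together with 8 genes generally listed as their targets: TXNIP, CCNG2, FBXO32, KLF2, KLF6, PIK3IP1, IRS2 and SESN3. These 10 genes were taken by symbol from the 78894 gene identifiers of the count table, and each symbol had 1 row. Their status as targets is background knowledge, since binding of FOXO factors was not measured in these cultures. Levels are given in CPM, counts scaled to library size, after TMM scaling, which adjusts library sizes for differences in RNA composition.

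FOXO proteins are the transcription factors held in check by phosphoinositide 3-kinase (PI3K) and its effector kinase AKT. When PI3K is active, AKT phosphorylates FOXO proteins, which then leave the nucleus and no longer drive their targets. In B cells the antigen receptor activates PI3K beside the kinase BTK, and FOXO1 is known for its part in B cell development and in the germinal centre. Among the targets, TXNIP binds thioredoxin and limits glucose uptake, and CCNG2 encodes an atypical cyclin linked to cell cycle arrest. FBXO32 encodes the substrate-binding subunit of a ubiquitin ligase, and KLF2 and KLF6 are zinc finger transcription factors, of which KLF2 is known for keeping lymphocytes quiescent. PIK3IP1, IRS2 and SESN3 act back on the pathway: PIK3IP1 is a membrane inhibitor of PI3K, IRS2 an adaptor that couples insulin and IGF receptors to PI3K, and SESN3 a sestrin that restrains the growth kinase mTORC1.

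The cultures were TMD8 cells, an established lymphoma line of the activated B cell type, in 100 libraries of transcript 3' ends. In the 24 h set, 5 wild-type (WT) single-cell clones and 6 A428D single-cell clones each received DMSO, zelebrudomide, bexobrutideg, pomalidomide, venetoclax, or venetoclax together with 1 of the other agents, which made 16 groups of 5 or 6 libraries. Zelebrudomide and bexobrutideg are degraders of BTK, the former also directing cereblon against IKZF1 and IKZF3, pomalidomide is a cereblon-directed degrader of IKZF1 and IKZF3, and venetoclax inhibits BCL2. Another 12 libraries came from untreated cultures of the same 11 clones and of the parental line. The A428D change sits in the cells' own BTK gene by the growth and design texts, whereas sample titles attach it to SF3B1, and counts of 3' ends cannot check a base change. The labels state no dose for any agent. Because each replicate is a clone, p-values rest on the spread between clones of a group, pooled over the groups in a fit. The 16 groups reuse the same 11 clones, and the fit without a clone block treats their libraries as independent. With the clone as a block, p-values rest on the spread that remains within clones.

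Library totals ran from 1476876 to 12502216 counts, with 1476876 to 9389347 in the 24 h set and 10401314 to 12502216 in untreated cultures. Summed B cell markers stood at 1560 to 3379 CPM in every library, while summed T cell markers reached at most 2.03 CPM and myeloid markers at most 2.33 CPM. Summed stromal markers ran from 2.14 to 32.4 CPM (COL1A1 reached 30.7 CPM), and epithelial markers from 1.09 to 8.65 CPM. The WT clone 3 library given bexobrutideg with venetoclax was the shallowest and stood apart for several of the genes: KLF2 was at 26.0 CPM there against 65.5 to 69.9 in the other 4 clones, and CCNG2 at 29.4 against 10.7 to 12.3. Results that rest on it are given with and without it. Several of the genes were thinly counted, with 0 to 11 counts per library for PIK3IP1, 0 to 26.3 for SESN3, 0 to 32 for IRS2 and 3 to 47 for FBXO32. In bulk libraries, fewer cells of a kind and less RNA per cell cannot be told apart.

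On GRCh38, the genes lie at chr13:40469953-40666597 (FOXO1, minus strand), chr6:108559835-108684774 (FOXO3, plus), chr1:145992435-145996600 (TXNIP, minus) and chr4:77157151-77433388 (CCNG2, plus). KLF2 lies at chr19:16324817-16327874 on the plus strand, and KLF6 at chr10:3775996-3785281, PIK3IP1 at chr22:31281593-31292534, IRS2 at chr13:109752698-109786568 and SESN3 at chr11:95165513-95232541 lie on the minus strand. All of these are protein coding, as is FBXO32. The 3' end of FOXO1 lies near LINC00598 on the same strand, and 55% of libraries held a count of FOXO1 that was not whole, so its reads may be shared with that gene. Counts that were not whole were also held by 51% of libraries for FOXO3 and 22% for KLF6, which have no gene listed near their 3' ends. Which genes shared reads with these 3 was not tested. CCNG2 and SESN3 overlap antisense genes near their 3' ends and PIK3IP1 overlaps PIK3IP1-AS1, and without a stated strand setting such pairs cannot be told apart.

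The 250 bases before the RefSeq start sites (GRCh38.p14) were searched on both strands for GTAAACA, the FOXO consensus, and for CAAAACA, the core of the insulin response element, which share their closing letters but cannot match at the same place. Of the 10 genes, FBXO32 was left out, and the 14 windows of the other 9 were used, since some genes have more than 1 start. The FOXO consensus was present in 1 of the 14 windows and in 2.98% of all 35116 windows. It lay in 1 of the 2 windows of TXNIP, at 124 bases before the start. The insulin response element core was present upstream of IRS2 only, at 40 bases before the start, and in 4.3% of all windows. These 2 sequences are shown because they hold the matches, with the match in capitals (on the minus strand of the window for IRS2, so that its reverse complement appears).
TXNIP, chr1:145996580-145996829, minus strand: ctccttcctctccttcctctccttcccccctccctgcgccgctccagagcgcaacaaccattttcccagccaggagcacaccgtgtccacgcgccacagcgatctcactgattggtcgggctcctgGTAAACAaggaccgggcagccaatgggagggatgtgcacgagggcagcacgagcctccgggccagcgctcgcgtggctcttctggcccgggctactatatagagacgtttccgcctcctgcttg
IRS2, chr13:109786584-109786833, minus strand: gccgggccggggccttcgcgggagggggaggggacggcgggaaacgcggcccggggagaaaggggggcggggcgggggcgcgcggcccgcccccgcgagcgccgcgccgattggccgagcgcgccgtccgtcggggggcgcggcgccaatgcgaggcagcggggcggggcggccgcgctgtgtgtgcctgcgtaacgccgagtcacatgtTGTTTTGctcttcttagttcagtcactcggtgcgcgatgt
The E-box CACGTG, read the same on both strands, was present upstream of CCNG2 (30 bases before the start) and KLF6 (97 bases before), and in 6.34% of all windows. A match describes the letters of the window and was not tested as a binding site.

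Across the 16 groups of the 24 h set, FOXO1 and FOXO3 had their highest group means in WT clones given bexobrutideg, at 43.4 ± 2.60 (SD, n = 5) and 9.51 ± 0.948 CPM. FOXO1 was lowest in WT clones given venetoclax (26.4 ± 0.943), and FOXO3 was lowest in WT clones given pomalidomide with venetoclax (4.28 ± 0.456). Neighbouring groups in these orders overlapped: FOXO1 with zelebrudomide in WT clones averaged 43.0 ± 4.60 CPM. FBXO32 followed the same extremes as FOXO3, from 0.896 ± 0.278 CPM in WT clones given pomalidomide with venetoclax to 4.09 ± 1.16 with bexobrutideg. SESN3 ran from 0.333 ± 0.218 (WT, venetoclax) to 3.01 ± 0.792 CPM (WT, bexobrutideg) and TXNIP from 1.35 ± 0.421 (WT, venetoclax) to 4.12 ± 1.88 (A428D, DMSO). The zinc finger genes had other orders. KLF2 was highest in WT clones under DMSO (68.0 ± 9.15 CPM) and lowest in WT clones given pomalidomide (30.3 ± 3.79), and KLF6 ran from 59.5 ± 6.94 (WT, zelebrudomide with venetoclax) to 109 ± 17.9 CPM (A428D, pomalidomide). CCNG2 ran from 7.57 ± 0.862 (A428D, pomalidomide with venetoclax) to 23.9 ± 5.61 CPM (A428D, bexobrutideg). IRS2 ran from 1.16 ± 0.462 (WT, zelebrudomide with venetoclax) to 2.87 ± 1.48 CPM (A428D, DMSO), and PIK3IP1 from 0.296 ± 0.357 (A428D, venetoclax) to 1.09 ± 0.406 (WT, pomalidomide).

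**Figure D1:**
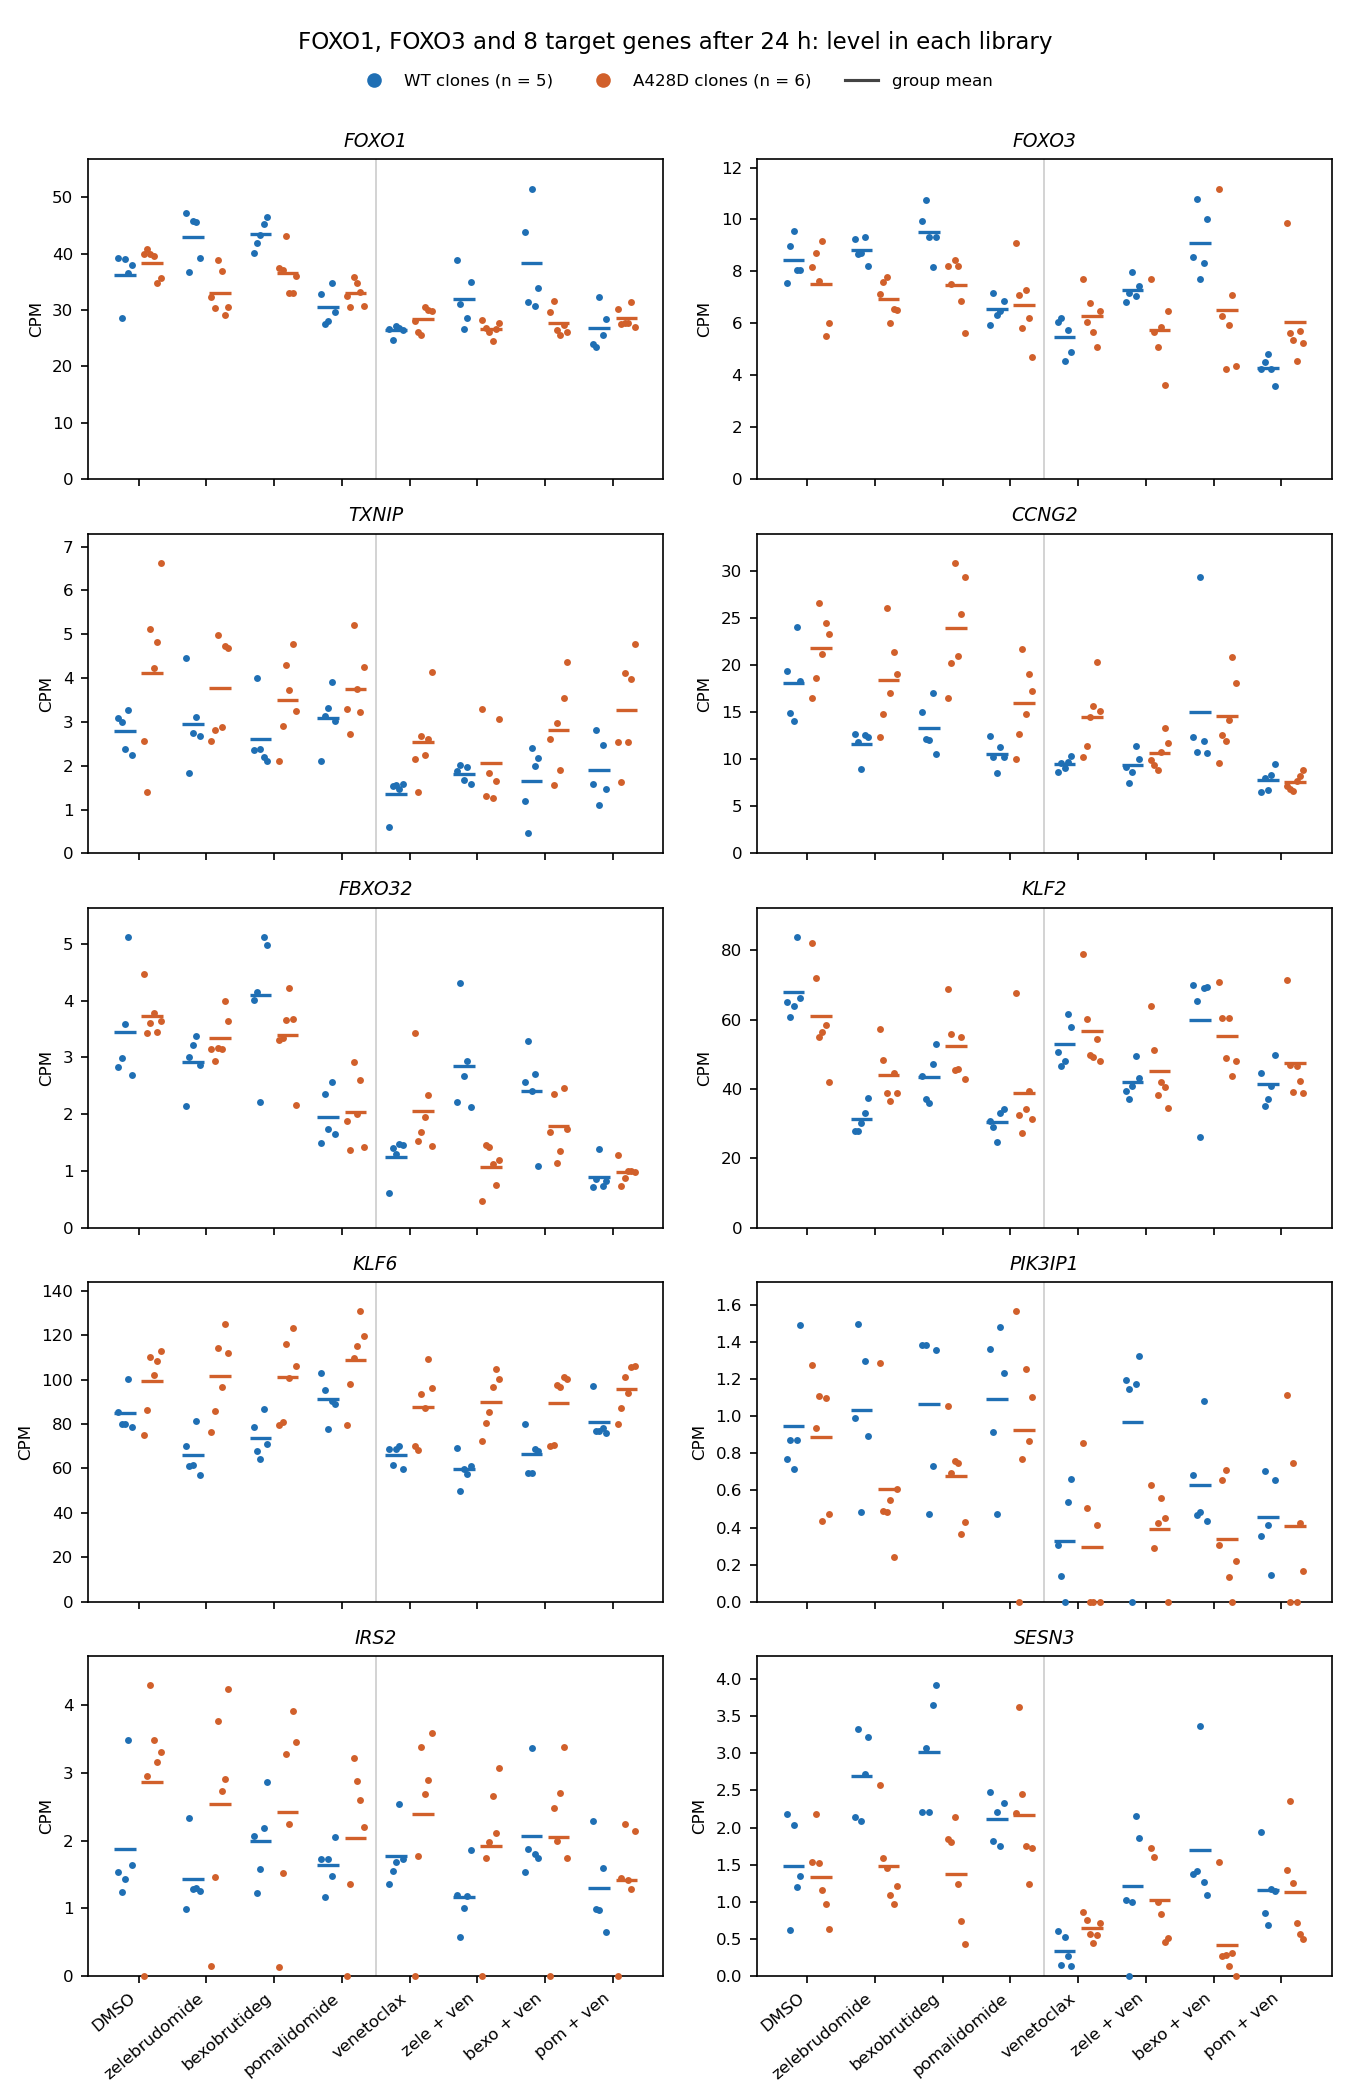
Level of each of the 10 genes in every library of the 24 h set, in CPM on linear axes that start at 0. Points are single libraries of WT (blue, n = 5) or A428D clones (orange, n = 6), horizontal lines are group means, and the grey line separates cultures without and with venetoclax. FOXO1, FBXO32 and SESN3 sit low in WT clones given venetoclax alone, and 1 library given bexobrutideg with venetoclax stands apart for CCNG2 (29.4 CPM) and KLF2 (26.0 CPM).

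Venetoclax lowered most of the set. In WT clones 8 of the 10 genes fell against DMSO and none rose (edgeR quasi-likelihood test, adjusted p under 0.05), against 32.8% of all 14962 genes tested and 17.4% called lower. The median log2 fold change over the 10 genes was -0.81, and over all genes tested it was -0.06. In A428D clones 5 of the 10 fell and none rose, where 16.9% of all genes were called and 8.81% were called lower, with medians of -0.54 over the 10 genes and -0.04 over all. With the clone as a block, 9 genes passed in WT clones and 7 in A428D clones. Shares over all genes, here and below, are those of the fit without the block, so blocked counts have no share beside them.

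Both FOXO factors were among the genes that fell. FOXO1 in WT clones 1 to 5 stood at 39.3, 28.5, 39.0, 36.6 and 37.9 CPM under DMSO and at 26.7, 24.8, 27.2, 26.8 and 26.6 CPM with venetoclax. Every venetoclax library lay below every DMSO library, and the change was -0.49 ± 0.10 (log2 fold change ± SE, adjusted p = 6.77e-05). A428D clones gave nearly the same change: FOXO1 ran from 34.8 to 40.8 CPM (median 39.7) under DMSO and from 25.6 to 30.5 (median 28.9) with venetoclax, again without overlap (-0.46 ± 0.09, adjusted p = 0.00017). FOXO3 fell in WT clones from 7.57, 8.98, 9.55, 8.06 and 8.06 to 6.07, 6.19, 4.53, 5.75 and 4.91 CPM (-0.66 ± 0.16, adjusted p = 0.000985), without overlap. In A428D clones FOXO3 overlapped between the groups and did not pass (-0.28 ± 0.15, adjusted p = 0.195).

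The largest falls were in the low-count targets. SESN3 in WT clones stood at 2.18, 0.623, 2.03, 1.20 and 1.34 CPM under DMSO and at 0.607, 0.141, 0.518, 0.268 and 0.133 CPM with venetoclax. All 5 clones fell and the groups did not overlap, although the lowest DMSO value was only just above the highest venetoclax value (-2.13 ± 0.49, adjusted p = 0.000404). FBXO32 in WT clones stood at 2.82, 2.99, 3.58, 5.12 and 2.69 CPM under DMSO and at 0.607, 1.41, 1.30, 1.47 and 1.46 CPM with venetoclax. Clone 1 was the lowest with venetoclax, and the groups did not overlap (-1.48 ± 0.24, adjusted p = 9.14e-07). FBXO32 also fell in 6 of 6 A428D clones, from a median of 3.62 CPM (3.43 to 4.47) to 1.82 (1.44 to 3.43), where the highest venetoclax value met the lowest DMSO value (-0.87 ± 0.20, adjusted p = 0.00143). PIK3IP1 fell in WT clones (-1.48 ± 0.57, adjusted p = 0.0376) and in A428D clones (-1.50 ± 0.55, adjusted p = 0.0454), from 0.945 ± 0.314 to 0.329 ± 0.273 CPM and from 0.889 ± 0.353 to 0.296 ± 0.357 CPM. That call was lost without any 1 of the WT clones (adjusted p = 0.057 to 0.139 in WT clones) and, for A428D clones, without any of A428D clones 2 to 6 (adjusted p = 0.0527 to 0.232) or WT clones 1, 2, 4 and 5 (0.0617 to 0.0653).

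TXNIP and CCNG2 fell in both genotypes. TXNIP went in WT clones from 3.08, 2.99, 2.39, 3.27 and 2.24 to 0.607, 1.55, 1.55, 1.47 and 1.59 CPM (-1.06 ± 0.32, adjusted p = 0.00668), with no overlap. Without WT clone 1, the lowest of the venetoclax libraries, the change was -0.82 and did not pass (adjusted p = 0.0673). In A428D clones TXNIP fell by 0.74 ± 0.26 on the log2 scale (adjusted p = 0.0365) with overlapping groups, a call lost without any of A428D clones 3 to 6 (adjusted p = 0.0736 to 0.153) or WT clone 4 or 5 (0.0622 and 0.0593). That call was also lost with only the compared groups in the fit (-0.72, adjusted p = 0.129). CCNG2 went in WT clones from 19.4, 14.96, 14.1, 24.1 and 18.4 to 8.64, 9.57, 9.07, 9.77 and 10.4 CPM. The venetoclax libraries were close together and all below DMSO (-0.97 ± 0.19, adjusted p = 5.5e-05). In A428D clones CCNG2 fell from a median of 22.3 to 14.8 CPM (-0.61 ± 0.17, adjusted p = 0.00817), and did not pass without A428D clone 3 (-0.51, adjusted p = 0.0607).

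KLF6 fell by a smaller amount in WT clones, from 85.0 ± 9.01 to 65.9 ± 4.77 CPM (-0.40 ± 0.13, adjusted p = 0.0112), and did not pass without WT clone 2, 4 or 5 (adjusted p = 0.0658, 0.0983 and 0.0726). KLF2 and IRS2 were the genes that did not pass in WT clones. KLF2 averaged 53.0 ± 6.48 CPM with venetoclax against 68.0 ± 9.15 (-0.39 ± 0.18, adjusted p = 0.0832) and passed with the clone as a block (-0.39, adjusted p = 0.00013). The clone block also added KLF6 (-0.21, adjusted p = 0.0043) and SESN3 (-1.06, adjusted p = 0.0112) in A428D clones. The response to venetoclax was not shown to differ between the genotypes: 0 of the 10 genes passed the interaction test (edgeR), 0 had an unadjusted p under 0.05, 0 passed in DESeq2, and 0 of all genes were called. The intervals were wide for SESN3 (difference 1.09, 95% interval -0.22 to 2.40) and FBXO32 (0.61, -0.01 to 1.23).

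Other genes of the pathway were read from a pair of lists. Neither list separates genes by the direction in which FOXO factors act on them, so rises and falls were not read as FOXO activity. Of 31 other FOXO target genes tested, 18 fell and 3 rose with venetoclax in WT clones, with a median log2 fold change of -0.57, and in A428D clones 13 fell and 1 rose, with a median of -0.35. Over all genes tested, 32.8% were called in WT clones (17.4% lower) and 16.9% in A428D clones (8.81% lower). TSC22D3, a glucocorticoid-induced leucine zipper gene, had the largest change, -3.17 ± 0.37 in WT clones and -2.05 ± 0.35 in A428D clones. BBC3, which encodes the BH3-only death protein PUMA, fell by 1.21 ± 0.10 and 0.98 ± 0.09, and BNIP3, a mitophagy receptor, fell by 1.16 ± 0.27 and 1.01 ± 0.24. The chemokine receptor gene CXCR4 fell by 0.96 ± 0.17 in WT clones and by 1.00 ± 0.16 in A428D clones. Genes of the PI3K, AKT and FOXO machinery went both ways: of 45 tested, 10 rose and 13 fell in WT clones (median -0.10), and 4 rose and 4 fell in A428D clones (median -0.10). FOXO4, another factor of the family, fell by 0.97 ± 0.33 in WT clones.

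**Figure D2:**
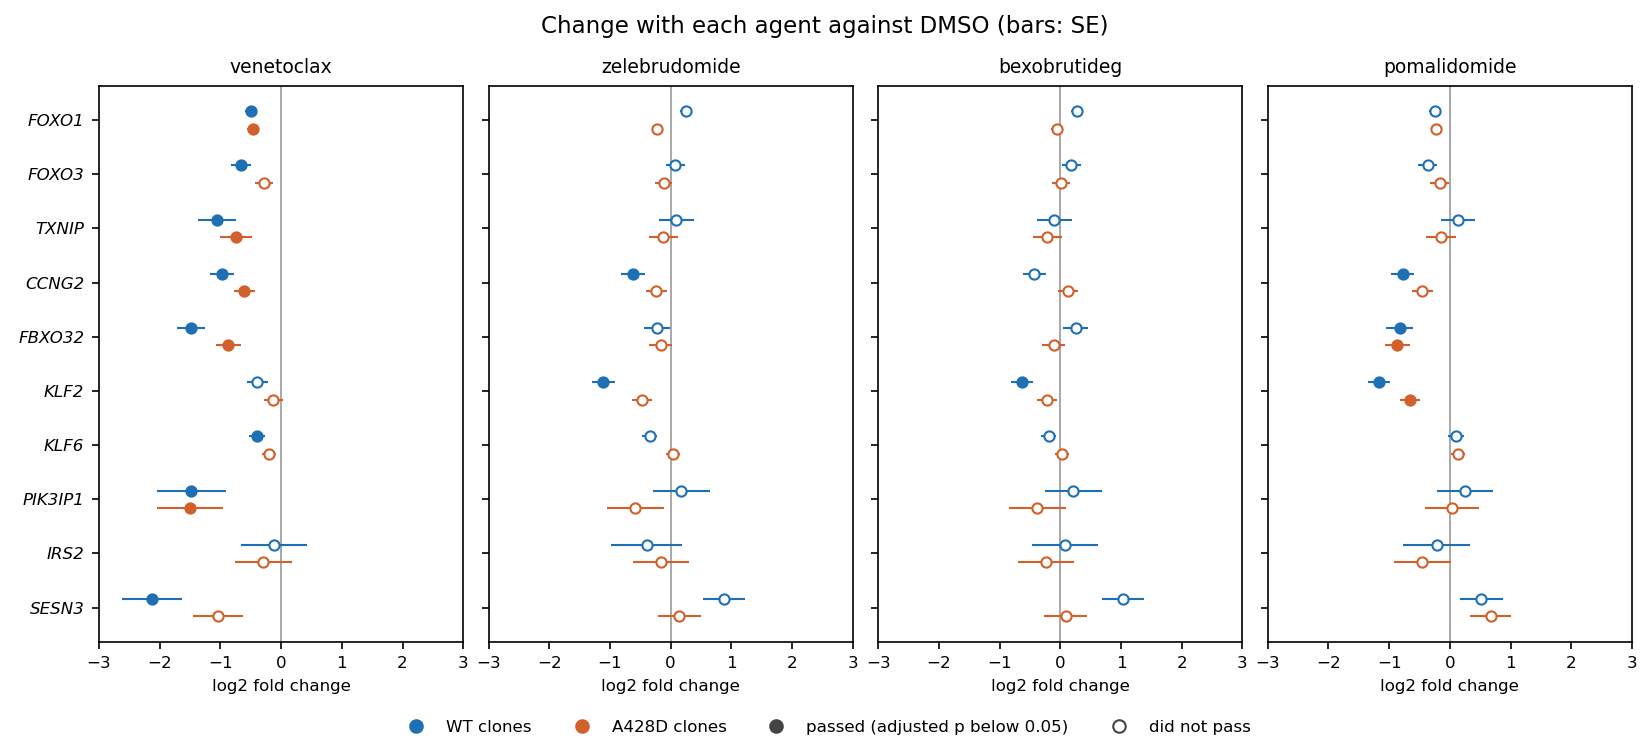
Log2 fold change of each gene with venetoclax, zelebrudomide, bexobrutideg or pomalidomide against DMSO, in WT (blue) and A428D clones (orange). Bars are SE, and filled points passed the test at an adjusted p under 0.05. The comparisons of one genotype share their DMSO libraries. With venetoclax every point lies left of 0, while with the other agents KLF2 is the gene lowered most in WT clones, by 1.11 (zelebrudomide), 0.63 (bexobrutideg) and 1.16 (pomalidomide).

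Without venetoclax, KLF2 was the gene that fell furthest in WT clones with each of the 3 other agents. It fell there with zelebrudomide, bexobrutideg and pomalidomide, and in A428D clones with pomalidomide. These comparisons share the DMSO libraries of their genotype, so their values are given side by side. Under DMSO, KLF2 in WT clones 1 to 5 stood at 65.1, 60.7, 63.8, 83.9 and 66.3 CPM. With zelebrudomide it stood at 27.9, 28.0, 30.1, 33.2 and 37.4 CPM, with pomalidomide at 30.7, 29.1, 24.6, 33.0 and 34.3, and with bexobrutideg at 43.8, 37.2, 36.1, 47.2 and 53.0. Each treated library was below each DMSO library, and all but the highest zelebrudomide library (37.4) lay below the lowest bexobrutideg library. The changes were -1.11 ± 0.18 with zelebrudomide (adjusted p = 8.32e-06), -1.16 ± 0.18 with pomalidomide (adjusted p = 1.07e-06) and -0.63 ± 0.18 with bexobrutideg (adjusted p = 0.0351). The bexobrutideg call was lost without any 1 of the WT clones (-0.57 to -0.71, adjusted p = 0.0578 to 0.207) and without A428D clone 4 or 5, which share in the estimate of the spread (adjusted p = 0.0504 and 0.0522), but the change was in the same direction in 5 of 5 clones and passed with the clone block (adjusted p = 5.75e-08).

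In A428D clones KLF2 ran from 42.2 to 82.2 CPM (median 57.4) under DMSO, from 36.5 to 57.4 (median 41.8) with zelebrudomide, from 42.8 to 68.9 (median 50.5) with bexobrutideg and from 27.3 to 67.7 (median 33.4) with pomalidomide. All of these overlapped DMSO, and A428D clone 1 was the highest in each. Only the change with pomalidomide passed (-0.66 ± 0.17, adjusted p = 0.00357, lower in 6 of 6 clones). It was -0.77 without clone 1 (adjusted p = 9.41e-06). It did not pass without clone 2 (-0.54, adjusted p = 0.0647) or with only the compared groups in the fit (-0.64, adjusted p = 0.12). With zelebrudomide the change was -0.47 ± 0.16 (adjusted p = 0.153), and it passed with the clone block (-0.46, adjusted p = 2.78e-05) and without the expression filter (-0.45, adjusted p = 0.0111). Whether the KLF2 response to zelebrudomide differed between genotypes depended on the fit, with an interaction of 0.64 ± 0.25 (adjusted p = 0.274) that passed with the clone block (0.65, adjusted p = 0.000132) and without the expression filter (0.68, adjusted p = 0.0102).

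CCNG2 was lowered beside KLF2. In WT clones it went from 19.4, 14.96, 14.1, 24.1 and 18.4 CPM under DMSO to 12.7, 11.8, 9.02, 12.6 and 12.3 with zelebrudomide and to 12.5, 10.3, 8.51, 11.3 and 10.3 with pomalidomide. Neither treated group overlapped DMSO, and clone 3 was lowest in all 3 groups. The change was -0.62 ± 0.19 with zelebrudomide (adjusted p = 0.0334) and -0.78 ± 0.19 with pomalidomide (adjusted p = 0.00268). The zelebrudomide call did not hold without WT clone 1, 2, 4 or 5 (adjusted p = 0.115, 0.0773, 0.207 and 0.104), or without A428D clone 4 or 6 (adjusted p = 0.0529 and 0.0511). FBXO32 fell with pomalidomide, in WT clones from 2.82, 2.99, 3.58, 5.12 and 2.69 to 1.48, 2.35, 1.73, 2.56 and 1.65 CPM (-0.82 ± 0.22, adjusted p = 0.0064) and in A428D clones from a median of 3.62 to 1.94 CPM (-0.87 ± 0.20, adjusted p = 0.00154). In neither genotype did the pomalidomide and DMSO libraries overlap. Without WT clone 4 the WT change was -0.75 and did not pass (adjusted p = 0.0549), nor did it without the expression filter (-0.84, adjusted p = 0.0502).

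Read against the whole table, these counts were 2 of 10 genes lower with zelebrudomide in WT clones (6.57% of all genes called, 3.52% lower), 1 of 10 with bexobrutideg (2.45%, 1.71% lower) and 3 of 10 with pomalidomide (9.98%, 4.63% lower), with none higher. With the clone block, for which no share over all genes is given, each of them came to 5 genes. Zelebrudomide then also passed for FOXO1 (0.26, adjusted p = 0.022), KLF6 (-0.35, adjusted p = 2.82e-05) and SESN3 (0.87, adjusted p = 0.011). Bexobrutideg then passed for FOXO1 (0.28, adjusted p = 0.0188), CCNG2 (-0.42, adjusted p = 0.0275), KLF6 (-0.20, adjusted p = 0.0383) and SESN3 (1.03, adjusted p = 0.00217), and pomalidomide for FOXO1 (-0.24, adjusted p = 0.0379) and FOXO3 (-0.37, adjusted p = 0.0243). FOXO1 thus had opposite signs with the BTK degraders and with pomalidomide in WT clones, with values of 0.26 ± 0.10 and 0.27 ± 0.10 against -0.25 ± 0.10 that did not pass in the fit of all groups without the block (adjusted p = 0.108, 0.139 and 0.111). With only the compared groups in the fit the first 2 passed (adjusted p = 0.0493 and 0.0408), and without the shallowest library zelebrudomide passed (0.0492). SESN3 stood at 2.14, 3.33, 2.09, 2.72 and 3.22 CPM with zelebrudomide and at 2.21, 3.08, 2.22, 3.65 and 3.92 with bexobrutideg, against 0.623 to 2.18 under DMSO. The bexobrutideg libraries all lay above DMSO, and neither change passed in the fit of all groups without the block (adjusted p = 0.133 and 0.0911). With only the compared groups in the fit both passed (adjusted p = 0.0287 and 0.0194), and the bexobrutideg change also passed without A428D clone 1 (0.0443) and without the expression filter (0.0472).

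In A428D clones none of the 10 genes passed with either degrader of BTK in the filtered fit of all groups without the block. With bexobrutideg 0 of 10 passed in edgeR, 0 had an unadjusted p under 0.05 and 0 passed in DESeq2, and 0% of all genes were called. The 95% intervals held changes of FOXO1 between -0.24 and 0.12 and of KLF2 between -0.53 and 0.11. With zelebrudomide 0 of 10 passed in edgeR and in DESeq2, 2 had an unadjusted p under 0.05 (both lower), and 2.06% of all genes were called. With the clone block 1 gene passed, KLF2 (-0.46, adjusted p = 2.78e-05). Pomalidomide lowered 2 of 10 in A428D clones (8.68% of all genes, 3.76% lower), and with the clone block 5 passed: CCNG2 (-0.46, adjusted p = 0.00214) and FOXO1 (-0.22, adjusted p = 0.0399) were lower as well and SESN3 was higher (0.70, adjusted p = 0.0487). The interaction with genotype gave 0 of 10 for zelebrudomide (3 at an unadjusted p under 0.05, 1 in DESeq2, 1.04% of all genes), 0 of 10 for bexobrutideg (2 unadjusted, 0 in DESeq2, 0.615%) and 0 of 10 for pomalidomide (1 unadjusted, 0 in DESeq2, 0%). FOXO1 with zelebrudomide was nearest the threshold, with a difference of -0.47 ± 0.13 (adjusted p = 0.0547), which passed in DESeq2 (adjusted p = 0.0256) and with the clone block (adjusted p = 0.00316). With the clone block the interaction also passed for KLF6 with zelebrudomide (0.38, adjusted p = 0.00215) and for KLF2 (0.43, adjusted p = 0.0205) and CCNG2 (0.55, adjusted p = 0.0463) with bexobrutideg.

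The other genes of the pathway went both ways with these agents. Of 31 other FOXO targets, 6 rose and 1 fell with zelebrudomide in WT clones, 1 rose and 2 fell with bexobrutideg, and 8 rose and 6 fell with pomalidomide, with medians of -0.02, 0.02 and 0.03. Over all genes tested, 6.57%, 2.45% and 9.98% were called with these agents in WT clones (3.52%, 1.71% and 4.63% lower). DEPP1, a FOXO-induced gene linked to autophagy, rose with zelebrudomide in WT (1.28 ± 0.16) and A428D clones (1.20 ± 0.15) and with pomalidomide (1.42 ± 0.16 and 1.59 ± 0.15). CCND2, which encodes cyclin D2, rose with zelebrudomide (0.66 ± 0.13 in WT, 0.89 ± 0.12 in A428D clones) and with pomalidomide (1.02 ± 0.13 and 1.04 ± 0.12). With venetoclax it rose as well (0.44 ± 0.13 and 0.41 ± 0.12). SOD2, the mitochondrial superoxide dismutase, rose with pomalidomide by 1.65 ± 0.13 in WT clones and by 1.42 ± 0.12 in A428D clones. With zelebrudomide SOD2 rose by less (0.57 ± 0.13 and 0.49 ± 0.12). Of the machinery genes, 1 rose and 2 fell with zelebrudomide, 0 and 0 changed with bexobrutideg, and 1 rose and 2 fell with pomalidomide among 45 in WT clones. PIK3R3, a regulatory subunit of PI3K, rose with zelebrudomide (0.87 ± 0.20), and INPP4B, a phosphatase of PI3K products, rose with pomalidomide in WT (2.90 ± 0.82) and A428D clones (2.09 ± 0.40). With bexobrutideg in WT clones, BCL2L1, which encodes BCL-XL, fell by 0.73 ± 0.15 and BBC3 rose by 0.40 ± 0.10. BBC3 also rose with zelebrudomide in WT clones (0.45 ± 0.10).

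Zelebrudomide was set against the agents that share 1 of its activities, with the limit that doses are not known to match. Over 4 such comparisons, 2 of 40 gene tests passed, both against pomalidomide in WT clones (7.44% of all genes called, 2.63% higher and 4.81% lower). FOXO1 was higher with zelebrudomide, at 47.2, 36.8, 45.9, 45.6 and 39.3 CPM against 32.8, 27.5, 28.1, 34.9 and 29.6 (0.50 ± 0.10, adjusted p = 0.000166), and the groups did not overlap. KLF6 was lower with zelebrudomide, at 70.3, 60.9, 61.3, 81.4 and 57.2 CPM against 103, 95.1, 77.7, 90.5 and 88.8 (-0.45 ± 0.13, adjusted p = 0.0176). Only WT clone 4 with zelebrudomide overlapped the pomalidomide libraries, and the KLF6 call was lost without WT clone 1, 2 or 5 (adjusted p = 0.0891, 0.131 and 0.126). FOXO3 did not pass (0.45, adjusted p = 0.0781), but did with the clone block (adjusted p = 0.00713), without A428D clone 1 (0.0125) and with only these groups in the fit (0.00912).

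Against bexobrutideg, 0 of 10 genes passed in WT clones (1.23% of all genes), with 2 at an unadjusted p under 0.05 and 0 in DESeq2. KLF2 was lower by 0.48 ± 0.19 on the log2 scale with zelebrudomide (95% interval -0.84 to -0.11, adjusted p = 0.353, and 0.000534 with the clone block or 0.0118 with only these groups in the fit), and FOXO1 differed by -0.01 (95% interval -0.21 to 0.18). In A428D clones 0 of 10 genes passed against bexobrutideg (1.24% of all genes, 1 unadjusted, 0 in DESeq2) and 0 of 10 against pomalidomide (0.842%, 1 unadjusted, 0 in DESeq2). With the clone block 1 gene passed in each: CCNG2 was lower with zelebrudomide than with bexobrutideg (-0.37, adjusted p = 0.0365), and FBXO32 was higher than with pomalidomide (0.70, adjusted p = 0.0112).

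Adding a BTK degrader to venetoclax raised part of the set in WT clones. Against venetoclax alone, 3 of 10 genes were higher with zelebrudomide (21.2% of all genes called, 11.6% higher) and 4 of 10 with bexobrutideg (15.5%, 8.01% higher), with none lower, while pomalidomide raised 1 of 10 (8.41%, 5.31% higher). These comparisons use the same venetoclax libraries as the falls against DMSO above, so the 2 sets of changes are not independent and levels are given for all groups. The medians over the 10 genes were 0.37, 0.56 and -0.11, against 0.03 for each of the degraders over all genes. With the clone block, for which no share over all genes is given, 6, 6 and 3 genes passed. The share of mitochondrial counts was 9.41% to 10.3% in WT clones given zelebrudomide with venetoclax and 7.73% to 8.94% with venetoclax alone, and library totals were 3149847 to 6123577 and 6490797 to 7394151 counts, without overlap in either. Library totals in WT clones given bexobrutideg with venetoclax were 1476876 to 6110730 counts, also all below venetoclax alone. With pomalidomide added they were 5807635 to 6902370 counts and overlapped venetoclax alone. In A428D clones the totals overlapped: 5813034 to 7921051 counts with venetoclax alone, 6270157 to 7305943 with zelebrudomide added and 5050780 to 7613911 with bexobrutideg added. The mitochondrial shares overlapped venetoclax alone in WT clones with bexobrutideg (6.24% to 9.96%) and pomalidomide (8.88% to 10.3%) added. In A428D clones the shares were 6.83% to 9.12% with zelebrudomide added and 6.92% to 9.05% without. The part of depth and mitochondrial share in these changes, and in the genotype differences below, was not tested.

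FBXO32 stood at 2.21, 4.31, 2.66, 2.94 and 2.12 CPM in WT clones with zelebrudomide and venetoclax, against 0.607, 1.41, 1.30, 1.47 and 1.46 with venetoclax alone and 2.69 to 5.12 under DMSO. Every library of the combination lay above every library of venetoclax alone and within the DMSO range or below it (1.17 ± 0.27, adjusted p = 0.000755). With bexobrutideg and venetoclax it stood at 2.57, 3.29, 2.41, 2.71 and 1.09 CPM, where clone 5 lay inside the range of venetoclax alone (0.95 ± 0.27, adjusted p = 0.0109). That call was lost without WT clone 1 or 2 (0.75 and 0.83, adjusted p = 0.101 and 0.0736) and without the expression filter (0.88, adjusted p = 0.132). With pomalidomide and venetoclax FBXO32 averaged 0.896 ± 0.278 CPM and did not pass (-0.45 ± 0.30, adjusted p = 0.502).

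In A428D clones FBXO32 fell when zelebrudomide or pomalidomide was added. It ran from 0.472 to 1.45 CPM (median 1.16) with zelebrudomide and venetoclax and from 0.726 to 1.27 (median 0.989) with pomalidomide and venetoclax, against 1.44 to 3.43 (median 1.82) with venetoclax alone. The pomalidomide libraries lay below all of venetoclax alone (-1.06 ± 0.25, adjusted p = 0.002), while the highest zelebrudomide library just overlapped (-0.93 ± 0.25, adjusted p = 0.0363). The zelebrudomide change rested on A428D clone 1, which was highest with venetoclax alone and lowest with the combination: without it the change was -0.58 (adjusted p = 0.545), and it did not pass without clone 4 or 5 either (adjusted p = 0.105 and 0.233). The same change did not pass in DESeq2 (adjusted p = 0.0806), without the expression filter (0.191) or with only the compared groups in the fit (0.204). The difference between genotypes for pomalidomide was -0.61 ± 0.40 (adjusted p = 1). That for zelebrudomide, -2.10 ± 0.36, passed (adjusted p = 4.7e-05, where 6.22% of all genes were called and 3.22% were lower) and remained at -1.71 (adjusted p = 0.00142) without that clone. For bexobrutideg the difference in FBXO32 was -1.16 ± 0.35 (adjusted p = 0.0471, with 3.36% of all genes called and 1.78% lower) and was lost in 13 of 17 alternatives. Without A428D clone 1 it was -0.92 (adjusted p = 0.171), and without the shallowest library it was -1.13 (adjusted p = 0.0635).

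SESN3 was higher with all 3 additions in WT clones. It stood at 1.02, 0, 0.999, 2.16 and 1.86 CPM with zelebrudomide and venetoclax, at 1.37, 1.41, 3.37, 1.27 and 1.09 with bexobrutideg and venetoclax and at 1.94, 0.847, 0.691, 1.17 and 1.15 with pomalidomide and venetoclax. Venetoclax alone gave at most 0.607 CPM, so that only clone 2 with zelebrudomide, at 0, overlapped it. The changes were 1.90 ± 0.56 (adjusted p = 0.00944), 2.16 ± 0.54 (adjusted p = 0.00272) and 1.74 ± 0.53 (adjusted p = 0.0237). The high value of 3.37 CPM is 7 counts in the shallowest library, without which the bexobrutideg change was 1.89 (adjusted p = 0.0134). Without WT clone 4 or 5 the zelebrudomide change did not pass (adjusted p = 0.14 and 0.104), nor did the pomalidomide change without WT clone 1, 2, 4 or 5 (adjusted p = 0.0875, 0.066, 0.113 and 0.14). In A428D clones SESN3 had a median of 0.273 CPM with bexobrutideg and venetoclax and 0.641 with venetoclax alone, with overlapping groups (-0.58 ± 0.52, adjusted p = 1). The genotype difference for bexobrutideg was -2.74 ± 0.75 (adjusted p = 0.0227), -2.48 without the shallowest library (adjusted p = 0.0488), and it did not pass without A428D clone 3 or 4 or WT clone 3, 4 or 5 (adjusted p = 0.0508 to 0.0599).

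FOXO1 and FOXO3 were higher in WT clones when bexobrutideg was added. FOXO1 stood at 43.8, 31.5, 51.6, 30.7 and 33.9 CPM, against 24.8 to 27.2 with venetoclax alone, without overlap (0.54 ± 0.10, adjusted p = 6.58e-05). The shallowest library is the highest of them, and without it the change was 0.40 (adjusted p = 0.00268). With only the compared groups in the fit the change was 0.56 and did not pass (adjusted p = 0.0707). FOXO3 stood at 8.56, 10.8, 7.71, 8.31 and 10.0 CPM, against 4.53 to 6.19, also without overlap (0.76 ± 0.17, adjusted p = 0.000862, and 0.76 with adjusted p = 0.00131 without that library). With zelebrudomide FOXO1 stood at 38.8, 31.0, 26.6, 28.6 and 35.0 CPM, and clone 3 was below its own venetoclax value (0.32 ± 0.10, adjusted p = 0.0215). That call was lost without any of WT clones 1, 2, 4 and 5 (0.21 to 0.32, adjusted p = 0.0511 to 0.223) or A428D clones 1, 4, 5 and 6 (adjusted p = 0.0539 to 0.0571). Without the expression filter the change was 0.23 and did not pass (adjusted p = 0.553). FOXO3 with zelebrudomide did not overlap venetoclax alone and did not pass (0.43, adjusted p = 0.0718), but did with the clone block (adjusted p = 0.0207) and with only these groups in the fit (0.0254). In A428D clones FOXO1 stayed between 25.7 and 31.5 CPM with bexobrutideg and venetoclax against 25.6 to 30.5 with venetoclax alone (-0.03 ± 0.09, 95% interval -0.21 to 0.16). The genotype difference in FOXO1 was -0.57 ± 0.14 for bexobrutideg (adjusted p = 0.00778) and -0.43 without the shallowest library (adjusted p = 0.0479), and it did not pass without the expression filter (0.209) or with only the compared groups in the fit (0.0953). That in FOXO3, -0.70 ± 0.23, did not pass (adjusted p = 0.0723), but did with the clone block (-0.71, adjusted p = 0.00627) and without A428D clone 1 (-0.84, adjusted p = 0.00503), whose FOXO3 stood at 11.2 CPM with bexobrutideg and venetoclax against 4.26 to 7.08 in the other A428D clones.

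**Figure D3:**
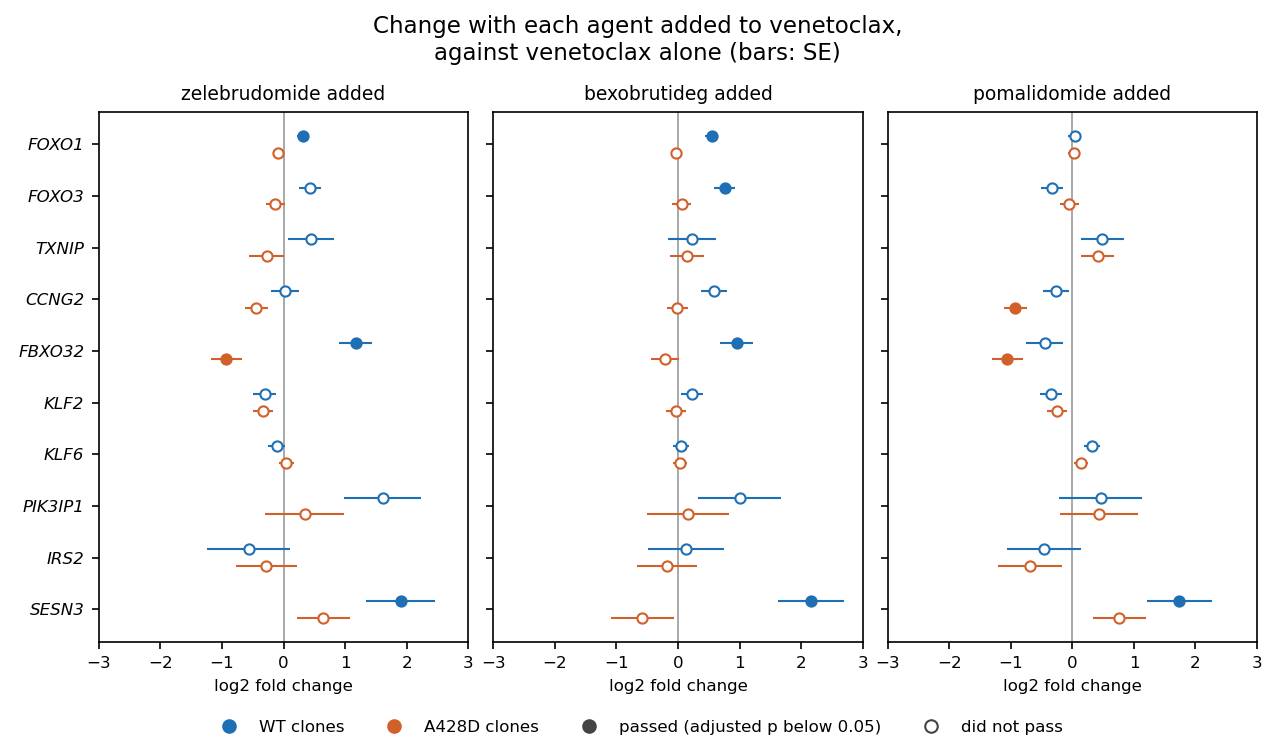
Log2 fold change of each gene when zelebrudomide, bexobrutideg or pomalidomide was added to venetoclax, against venetoclax alone, in WT (blue) and A428D clones (orange). Bars are SE, and filled points passed the test at an adjusted p under 0.05. FBXO32 lies at 1.17 in WT and -0.93 in A428D clones for zelebrudomide, and SESN3 lies right of 0 in WT clones in all 3 panels.

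The remaining genes gave few calls on a venetoclax background. With bexobrutideg in A428D clones 0 of 10 passed in edgeR, with 0 at an unadjusted p under 0.05 and 0 in DESeq2 (0% of all genes). With zelebrudomide in A428D clones FBXO32 was the only 1 of 10 (1.07% of all genes, 0.414% lower), and with pomalidomide 2 of 10 fell (7.91%, 3.31% lower). CCNG2 was the second of these, running from 6.61 to 8.88 CPM (median 7.41) with pomalidomide and venetoclax against 10.3 to 20.4 (median 14.8) with venetoclax alone, without overlap (-0.93 ± 0.19, adjusted p = 0.000205). With the clone block 3 and 4 genes passed, the additions being KLF2 (-0.33, adjusted p = 0.00626) and CCNG2 (-0.44, adjusted p = 0.0404) for zelebrudomide and KLF2 (-0.25, adjusted p = 0.0247) and IRS2 (-0.72, adjusted p = 0.0224) for pomalidomide. In WT clones the block added, for zelebrudomide, FOXO3, KLF2 (-0.31, adjusted p = 0.00955) and PIK3IP1 (1.58, adjusted p = 0.0201), for bexobrutideg KLF2 (0.24, adjusted p = 0.0499) and CCNG2 (0.51, adjusted p = 0.0175), and for pomalidomide KLF2 (-0.34, adjusted p = 0.00419) and KLF6 (0.31, adjusted p = 0.000218). CCNG2 with bexobrutideg rested on the shallowest library: the change was 0.58 ± 0.21 with it and 0.26 without it (adjusted p = 0.0505 and 0.419). The interaction gave 1 of 10 for zelebrudomide, to which the clone block added FOXO1 (-0.40, adjusted p = 0.0185) and FOXO3 (-0.57, adjusted p = 0.0362), 3 of 10 for bexobrutideg and 0 of 10 for pomalidomide (1 at an unadjusted p under 0.05, 0 in DESeq2, 0% of all genes).

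Of the 31 other FOXO targets, 12 rose and 2 fell in WT clones when zelebrudomide was added, 13 rose and 2 fell with bexobrutideg, and 8 rose and 2 fell with pomalidomide, with medians of 0.35, 0.39 and 0.16. Over all genes tested, 21.2%, 15.5% and 8.41% were called (11.6%, 8.01% and 5.31% higher). TSC22D3 rose with zelebrudomide (1.61 ± 0.46) and pomalidomide (1.41 ± 0.43), and BBC3 rose with zelebrudomide (1.02 ± 0.10), bexobrutideg (0.82 ± 0.10) and pomalidomide (0.61 ± 0.10). TNFSF10, which encodes the death ligand TRAIL, rose with bexobrutideg (0.88 ± 0.28) and pomalidomide (1.08 ± 0.26). In A428D clones 2, 0 and 5 of the 31 rose, and 0, 0 and 2 fell, where 1.07%, 0% and 7.91% of all genes were called. Between genotypes, GADD45A, a growth arrest gene, differed for zelebrudomide (-1.20 ± 0.32), TNFSF10 (-1.33 ± 0.37) and BBC3 (-0.94 ± 0.14) differed for bexobrutideg, and BCL2L1 differed for zelebrudomide (1.05 ± 0.20) and bexobrutideg (1.25 ± 0.20). BBC3 also differed for zelebrudomide (-0.96 ± 0.14). BCL2L1 had fallen by 1.05 ± 0.15 with bexobrutideg in WT clones.

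Between genotypes without a drug, members of the set were called in untreated cultures and not under DMSO. Under DMSO 0 of 9 tested genes passed (7.22% of all 13397 genes called), with 0 at an unadjusted p under 0.05 and 0 in DESeq2, and PIK3IP1 did not pass the filter on low counts. Leaving out 1 clone at a time gave 0 to 2 calls. KLF6 came nearest, at 99.1 ± 15.1 CPM in A428D and 85.0 ± 9.01 in WT clones (0.20 ± 0.10, adjusted p = 0.242). Of the lists under DMSO, 1 of 30 other FOXO targets was higher and 1 lower in A428D clones, and 2 of 44 machinery genes were higher and 4 lower. In untreated cultures 2 of 8 tested genes were higher in A428D clones (5.9% of all 14564 genes called, 3.5% higher), and PIK3IP1 and SESN3 did not pass the filter.

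KLF6 in untreated WT clones stood at 169, 166, 173, 185 and 177 CPM, and in untreated A428D clones it ran from 284 to 421 (median 310). All A428D clones lay above all WT clones (0.93 ± 0.09, adjusted p = 0.000109), while the parental line, with 1 library, stood at 70.8 CPM, below every clone. CCNG2 in untreated WT clones stood at 5.57, 5.44, 5.20, 4.34 and 5.42 CPM against 7.86 to 10.6 (median 8.63) in A428D clones. The groups did not overlap (0.80 ± 0.11, adjusted p = 0.000352), and the parental line was at 4.44 CPM, within the range of WT clones. Both calls held in all 14 alternatives run. Of the lists, 4 of 30 other FOXO targets were higher and 1 lower, and 7 of 45 machinery genes were higher and 1 lower. Over all genes tested, 5.9% were called and 3.5% were higher. TSC22D3 was higher by 1.96 ± 0.23, INPP4B by 1.74 ± 0.45, and INPP5D, which encodes the phosphatase SHIP1, by 0.78 ± 0.16. SGK1, a kinase related to AKT, was higher by 0.56 ± 0.14.

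Levels under DMSO at 24 h and in untreated cultures were far apart for several of the genes, but the 2 kinds of library were separate sets, so that set, depth and exposure cannot be told apart and no test was made. TXNIP averaged 36.2 ± 3.54 CPM in untreated WT clones and 2.79 ± 0.453 under DMSO, a ratio of 12.98, and 37.8 ± 2.11 against 4.12 ± 1.88 in A428D clones, a ratio of 9.17. No untreated library came near a DMSO library, and the parental line was at 45.7 CPM. KLF6 was higher in untreated cultures too, by 2.05 times in WT and 3.34 times in A428D clones. The other targets named so far were higher under DMSO: FBXO32 by 4.27 and 4.83 times, CCNG2 by 3.50 and 2.43 times, KLF2 by 2.60 and 1.87 times and FOXO1 by 1.54 and 1.85 times in WT and A428D clones. KLF2 in A428D clones was the only 1 of these with overlapping groups.

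**Figure D4:**
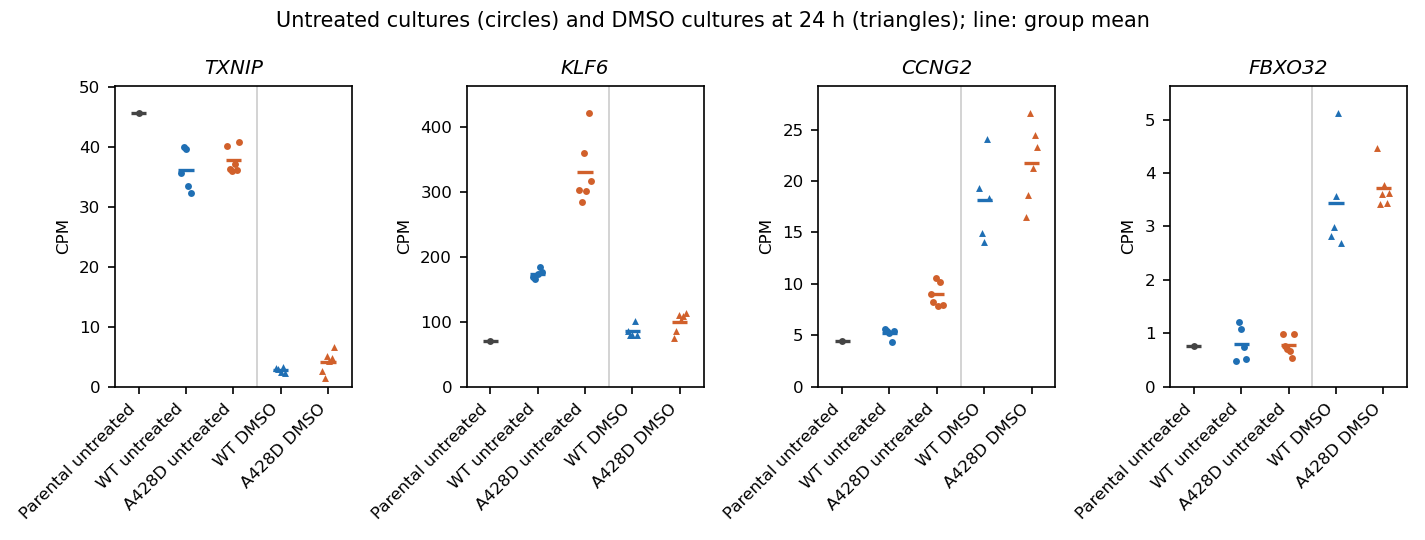
Level of TXNIP, KLF6, CCNG2 and FBXO32 in untreated cultures (circles) of the parental line (1 library), WT clones (n = 5) and A428D clones (n = 6), and under DMSO at 24 h (triangles), in CPM on linear axes from 0. Lines are group means, and the untreated and DMSO libraries are separate sets. TXNIP stands at 32.4 to 45.7 CPM in untreated cultures and at most 6.63 under DMSO, and CCNG2 and FBXO32 are higher under DMSO.

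Single clones set part of the spread. IRS2 was nearly without counts in A428D clone 1: its 9 libraries held 4 counts together, 6 of them held 0, and the highest held 2, against 8 to 32 counts in the 45 libraries of the other A428D clones. A count of 0 allows up to 3 counts, or 0.371 CPM in the DMSO library of that clone, whereas the other 5 A428D clones stood at 2.96 to 4.30 CPM under DMSO. Without clone 1, IRS2 averaged 3.45 ± 0.5145 CPM in A428D clones under DMSO (n = 5) against 1.87 ± 0.916 in WT clones. The same clone had the highest KLF2 of the A428D clones in 9 of 9 conditions, with 65.9 CPM in the untreated culture against 18.8 to 45.7 in the other 5 clones and 67.7 with pomalidomide against 27.3 to 39.3. It also had the lowest KLF6 in 7 of 9 conditions, the lowest CCNG2 in 6 of 9 and the highest PIK3IP1 in 7 of 9. Among WT clones no clone was highest or lowest in more than 7 of 9 conditions for any gene, the most regular being PIK3IP1, lowest in clone 3 in 7 of 9.

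**Figure D5:**
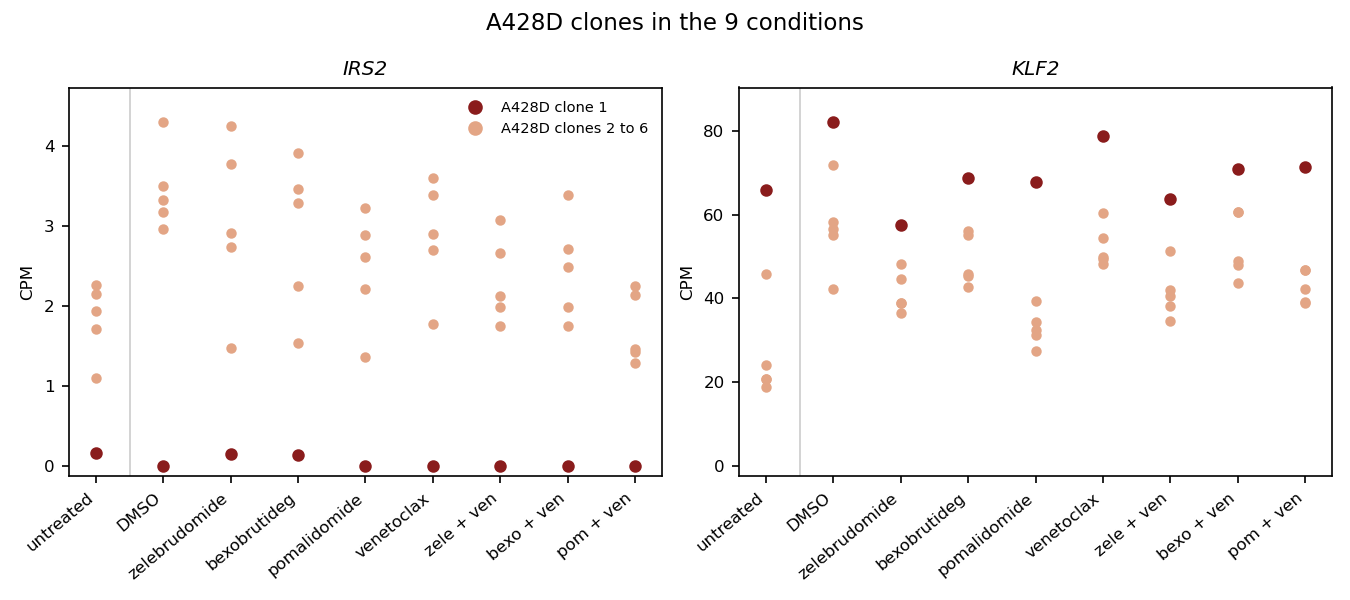
Level of IRS2 and KLF2 in CPM in the 6 A428D clones, in untreated cultures and in the 8 conditions of the 24 h set. Dark points are clone 1 and light points clones 2 to 6. Clone 1 is at or near 0 for IRS2 (at most 0.152 CPM) and highest for KLF2 in 9 of 9 conditions.

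For the 3 genes at 5 CPM or more with the widest range of group means, the genes with the most similar pattern were found by Pearson correlation of mean log2 CPM over the 16 groups of the 24 h set. These are descriptions over groups that share libraries, clones and controls. CCNG2 was most like TPD52 (r = 0.952), MCCC1 (0.944) and PFKFB3 (0.941). KLF2 was most like KBTBD8 (0.902), GDF7 (0.890) and MRPL44 (0.888), with GDF7 at a mean of only 0.546 CPM. FOXO3 was most like C4orf3 (0.952), BTG2 (0.943) and KPNA5 (0.941). Among the 10 genes themselves, FOXO1 and FOXO3 had r = 0.903 over the 16 groups and FOXO1 and FBXO32 had r = 0.841, whereas FOXO1 and KLF2 had r = -0.05.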

How the data were processed

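RNA of 88 cultures exposed for 24 h and of 12 untreated cultures was sequenced from transcript 3' ends. The authors deposited estimated counts per gene identifier for 100 libraries, of which 8.75% of values were not whole. Per the submitters' processing notes, STAR 2.7.11 and featureCounts (Subread 2.1.1) were used with GRCh38, beside fastp 0.24.0, FastQC 0.12.1, MultiQC 1.32, SAMtools 1.22.1 and edgeR. The strand setting is not given in the sources used here. Values were rounded to whole numbers, which changed the total by -0.00678%, and 92 spike-in entries were left out. Library depth, 1476876 to 12502216 counts, limits the genes with few counts most.

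Counts were tested in edgeR 4.0.16 (R 4.3.3) by quasi-likelihood with TMM scaling, a filter at a count of 10 and a total of 15, robust dispersion and Benjamini-Hochberg adjustment over all genes tested. Calls were made where the adjusted p was under 0.05. All 16 groups of the 24 h set (88 libraries, 14962 genes) shared a fit, and the genotypes were compared in fits of their own under DMSO (13397 genes) and untreated (14564 genes). In all there were 27 comparisons. The fits were first run on simulated counts for bexobrutideg against DMSO in WT clones and for the genotypes under DMSO. Those counts held no clone effect, so they cannot show how the reuse of clones affects the p-values. CPM values printed are scaled over all 100 libraries. The 95% intervals are the estimate plus and minus the normal quantile times its SE.

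Samples were grouped by the labels, and clone numbers mark the same clone across conditions within a genotype. Over the 500 most variable genes, the median correlation of deviations was 0.551 within a clone (lowest -0.0515) and -0.153 between clones, and 88 of 88 libraries were nearest to their own clone. In 225 pairs of libraries of the same group, no pair was within sampling noise (lowest chi-square per degree of freedom 1.68). Alternatives were median-of-ratios scaling, DESeq2 1.42.0, no expression filter, each clone left out, the clone as a block, only the groups compared, and no shallowest library.

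The 10 genes, the lists of 47 machinery genes and 40 other FOXO targets, and the tests were chosen with earlier results of these data known. From the lists, the genes named are among the 4 called genes with the largest change in a comparison. Genes of similar pattern are the 3 most correlated, for the 3 genes at 5 CPM or more with the widest range. Positions are those of GENCODE on GRCh38, and promoter windows are from RefSeq (GRCh38.p14). One list gene is not reported by name here.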

Additional observations from a re-analysis of the deposited data

Results flagged for a closer look

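In 24 of 180 sets, each 1 gene in 1 group of 5 or 6 libraries, a single library lay far from the rest by Dixon's ratio. The rate of about 1 in 20 by chance holds for independent, normally distributed values. These sets share libraries and include genes with few counts, so that rate does not apply directly. The WT clone 3 library given bexobrutideg with venetoclax, the shallowest, accounted for 4 of them: KLF2 was low at 26.0 CPM, and CCNG2 (29.4 CPM), IRS2 (3.37 CPM) and SESN3 (3.37 CPM) were high. Whether its depth played a part was not tested.

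A428D clone 1 gave another 7. KLF2 stood at 67.7 CPM with pomalidomide and 71.5 CPM with pomalidomide and venetoclax, both high, and FOXO3 at 9.87 CPM with the latter. FBXO32 was high under DMSO (4.47 CPM), PIK3IP1 with zelebrudomide (1.29 CPM) and SESN3 with bexobrutideg and venetoclax (1.53 CPM). IRS2 was at 0 under DMSO in that clone.

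Under DMSO, WT clone 2 was low for FOXO1 (28.5 CPM), and WT clone 4 was high for KLF2 (83.9 CPM) and IRS2 (3.49 CPM). PIK3IP1 was high in WT clone 5 under DMSO (1.49 CPM) and at 0 in WT clone 3 with zelebrudomide and venetoclax. With venetoclax alone, WT clone 1 was low for FBXO32 and TXNIP (0.607 CPM each) and WT clone 2 for FOXO1 (24.8 CPM). With zelebrudomide, CCNG2 was low in WT clone 3 (9.02 CPM) and IRS2 high in WT clone 2 (2.33 CPM). TXNIP was high in WT clone 2 with bexobrutideg (4.00 CPM). With pomalidomide and venetoclax, FBXO32 was high in WT clone 3 (1.38 CPM) and KLF6 in WT clone 1 (97.3 CPM).

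The change on a venetoclax background differed between the genotypes in 4 cases, by the interaction term in edgeR. The difference, A428D minus WT, was -2.10 for FBXO32 with zelebrudomide, and with bexobrutideg it was -0.57 for FOXO1, -1.16 for FBXO32 and -2.74 for SESN3 on the log2 scale.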

How the results depend on the processing

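Changes of single genes were followed only where they had been called or lay at least 2 SE from 0, and smaller changes, whose sign is less certain, were left out. None of those followed reversed its direction under the alternatives run. Of 1303 values, 1147 stayed on their side of the threshold, 65 came to pass it and 91 no longer passed. Median-of-ratios scaling kept each count of called genes within 1.5 times. The counts that moved by more, out of 10 genes, follow by setting, and the cause was not tested. With DESeq2, zelebrudomide added to venetoclax gave 0 in A428D clones and the zelebrudomide interaction gave 1. Without the expression filter, bexobrutideg gave 2 in WT clones, zelebrudomide 1 in A428D clones, zelebrudomide added to venetoclax 0 in A428D clones, the zelebrudomide interaction 1 and the interaction for bexobrutideg added to venetoclax 1. Without the shallowest library, the interaction gave 1 for zelebrudomide and 2 for zelebrudomide added to venetoclax. With only the groups compared in the fit, and so fewer libraries, zelebrudomide gave 5 and bexobrutideg 3 in WT clones, pomalidomide 1 and venetoclax 3 in A428D clones, and zelebrudomide against bexobrutideg 1 in WT clones. In the same fits bexobrutideg and pomalidomide added to venetoclax gave 1 and 2 in WT clones, zelebrudomide and pomalidomide added gave 0 and 1 in A428D clones, and the interactions on venetoclax gave 2 for zelebrudomide and 0 for bexobrutideg.

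With the replicate block (clone), the pairing raised 15 counts past 1.5 times. Zelebrudomide, bexobrutideg and pomalidomide gave 5 each in WT clones, zelebrudomide 1 and pomalidomide 5 in A428D clones, and the interactions 3 for zelebrudomide and 2 for bexobrutideg. On venetoclax, zelebrudomide and pomalidomide gave 6 and 3 in WT and 3 and 4 in A428D clones, and the zelebrudomide interaction 3. Zelebrudomide against bexobrutideg gave 1 in each genotype and against pomalidomide 1 in A428D clones. The block removed no call. No paired analysis was possible because the same number names different clones in WT and A428D, for the comparisons of genotype under DMSO and untreated.

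Leaving out 1 clone at a time gave, in WT clones, 1 to 3 for zelebrudomide, 0 to 2 for bexobrutideg, 1 to 4 for zelebrudomide and 0 to 1 for pomalidomide added to venetoclax, and 1 to 3 for zelebrudomide against pomalidomide. In A428D clones it gave 1 to 2 for pomalidomide, 2 to 5 for venetoclax and 0 to 1 for zelebrudomide added to venetoclax. The interactions gave 0 to 1 for zelebrudomide and, on venetoclax, 1 to 2 for zelebrudomide and 1 to 3 for bexobrutideg, and the genotypes under DMSO 0 to 2. Depth limits PIK3IP1, SESN3, IRS2 and FBXO32 most.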
